A study of Mus musculus with 75 samples.

Results

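The mitochondrial solute carriers of the SLC25 family were followed in mouse kidneys 3 days after unilateral ureter obstruction (UUO), an injury in which 1 ureter is tied off and the other, contralateral (CL) kidney of the animal is kept for comparison. The members were taken by name: every row of the deposited gene count table whose symbol begins with Slc25a, which gave 47 of 32245 rows. Of these, 38 had enough reads to be tested in at least 1 of the 3 arms of the study, and 31 were tested in all 3. The 9 members tested nowhere were Slc25a2, Slc25a18, Slc25a27, Slc25a31, Slc25a41, Slc25a43, Slc25a47, Slc25a53 and Slc25a54, of which Slc25a53 had the most reads, 301 over all 75 libraries, and Slc25a54 had 0. Slc25a14, Slc25a21, Slc25a22 and Slc25a34 were tested in the Veptp and Pdgfb arms, and Slc25a29, Slc25a33 and Slc25a40 in the Veptp arm alone.

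The 75 libraries came from kidney RNA and fell into 12 groups. In the ABTAA arm, mice were given ABTAA, an antibody that binds ANGPT2 and activates the endothelial receptor TIE2, or human IgG Fc as the control. These groups held 8 CL and 8 UUO libraries for IgG and 7 of each for ABTAA, from C57BL6/J mice or wild-type mice of the breeding. In the Veptp arm, Veptp iECKO mice carried floxed Veptp, the gene of a phosphatase that acts on TIE2, and Cdh5-CreERT2, which tamoxifen, given at 4 weeks of age, switches on in endothelial cells. Their controls, labelled Veptp WT, were littermates with Veptp wt/lox and Cdh5-CreERT2 that were not induced, so tamoxifen and genotype cannot be told apart there. This arm held 7 CL and 8 UUO libraries for WT, and 6 CL and 8 UUO libraries for iECKO. In the Pdgfb arm, Pdgfb iKO mice carried floxed Pdgfb, the gene of a growth factor for pericytes and fibroblasts, and a tamoxifen-inducible Cre driven in the whole body by the CAG promoter, with tamoxifen given 1 week before surgery. Their controls, labelled WT, lacked Cre and carried Pdgfb wt/lox or lox/lox, and each of the 4 groups held 4 libraries. All mice were adults of 8 to 16 weeks and of both sexes, and the genetic lines were on a mixed background. Kidneys of sham-operated mice were included among the 4 Pdgfb WT CL libraries without a mark, and none is reported for Pdgfb iKO CL. The Pdgfb WT baseline is therefore only in part contralateral kidney of obstructed mice.

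Most SLC25 proteins sit in the inner mitochondrial membrane, which is otherwise closed to most metabolites, and exchange nucleotides, phosphate, organic acids, amino acids and cofactors between cytosol and matrix. The translocases of ADP and ATP supply the cell with ATP from oxidative phosphorylation, the dicarboxylate and oxoglutarate carriers and the aspartate/glutamate carriers move reducing equivalents and carbon, and the carnitine/acylcarnitine carrier brings fatty acids in for oxidation. The proximal tubule of the kidney is dense with mitochondria and uses fatty acids as its main fuel.

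The values that follow turn mostly on 4 members, and the 250 bases upstream of the RefSeq start of each are shown so that their promoters can be compared. The sequences are those of RefSeq for build GRCm38.p6, written 5′ to 3′ on the strand of the gene, and the capitals mark each GC box, the letters GGGCGG or, on the other strand, CCGCCC. Gene positions in the text are those of GENCODE, whose start is the RefSeq start for Slc25a24 and lies 3 bases from it for Slc25a10, 54 for Slc25a5 and 24 for Slc25a42, so that 24 of the bases shown for Slc25a42 lie inside its GENCODE gene.
Slc25a24 (the member that rose with UUO), chr3:109122899-109123148, plus strand: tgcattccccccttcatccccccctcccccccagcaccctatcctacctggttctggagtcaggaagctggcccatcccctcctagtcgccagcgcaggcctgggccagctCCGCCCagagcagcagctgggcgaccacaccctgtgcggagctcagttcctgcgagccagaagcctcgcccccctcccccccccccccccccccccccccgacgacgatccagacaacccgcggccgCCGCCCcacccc
Slc25a42 (the member with the largest mean fall of those called in all 3 control comparisons), chr8:70212282-70212531, minus strand: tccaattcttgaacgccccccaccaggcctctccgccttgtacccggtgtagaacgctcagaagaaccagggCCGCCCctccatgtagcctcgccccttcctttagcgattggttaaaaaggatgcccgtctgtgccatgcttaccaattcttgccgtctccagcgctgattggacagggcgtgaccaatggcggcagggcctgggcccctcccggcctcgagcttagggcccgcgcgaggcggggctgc
Slc25a10 (the dicarboxylate carrier, which fell), chr11:120491587-120491836, plus strand: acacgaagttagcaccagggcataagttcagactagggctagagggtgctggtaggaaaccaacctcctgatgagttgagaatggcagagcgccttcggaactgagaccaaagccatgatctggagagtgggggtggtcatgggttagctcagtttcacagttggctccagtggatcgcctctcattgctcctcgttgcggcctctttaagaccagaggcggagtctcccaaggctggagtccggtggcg
Slc25a5 (ADP/ATP translocase ANT2, with the clearest difference between the Pdgfb groups), chrX:36795347-36795596, plus strand: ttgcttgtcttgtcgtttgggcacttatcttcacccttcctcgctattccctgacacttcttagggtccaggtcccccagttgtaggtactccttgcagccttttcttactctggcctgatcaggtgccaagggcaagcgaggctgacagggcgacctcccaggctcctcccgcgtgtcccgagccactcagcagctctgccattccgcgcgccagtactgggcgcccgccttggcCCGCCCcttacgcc

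The promoter of Slc25a24 was 72.8% G and C with 2 GC boxes and 0 CCAAT boxes, and that of Slc25a42 was 63.6% G and C with 1 GC box and 5 CCAAT boxes, counting CCAAT on both strands. The Slc25a10 window held 0 of either motif and was 56.0% G and C, while that of Slc25a5 held 1 GC box and was 61.6% G and C. A promoter was matched for 36 of the 47 members. At least 1 GC box lay in 25 of these 36 (69.4%), against 35.4% of the promoters of 27025 genes, and at least 1 CCAAT in 18 (50.0%) against 37.5%. TGANTCA, the AP-1 motif, was found in 2 of 36 (5.56%) against 7.82% of all promoters. The letters of 3 further motifs were in 0 of the 36 windows: TCAAGGTCA, bound by estrogen-related receptors, CAAAGTCCA, bound by HNF4, and GCGCATGCG, bound by NRF1. In all promoters these were found in 0.422%, 0.451% and 1.64%. These are matches of letters and show no binding.

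The libraries held between 172827 and 2341800 assigned reads, with medians of 618964.5 (ABTAA arm), 980315 (Veptp arm) and 903346 (Pdgfb arm). Levels are given as CPM, read counts scaled to the size of the library with TMM factors of the arm. They depend on transcript length and were not compared between genes. The targeted genes were read as a check of the labels. Ptprb, which encodes VEPTP, had a median of 61.5 CPM in Veptp WT and 33.7 in Veptp iECKO CL kidneys, with log2 differences of −0.63 in CL and −0.69 in UUO kidneys (edgeR adjusted p = 1.00 in both). Library names took 2 forms in the ABTAA and Veptp arms, joined names with the character _ (such as G_2) and plain names without it (such as C8), and the labels do not say what they stand for. Ptprb was lower in joined names of the Veptp arm (log2 −1.04, edgeR adjusted p = 7.07e-07). The WT CL median was 69.1 CPM over 3 plain names and 34.4 over 4 joined names, and the iECKO CL median 36.0 over 2 plain names and 33.7 over 4 joined names, so among joined names the WT range of 28.5 to 61.5 CPM covered the iECKO range of 29.2 to 35.9. Pdgfb ranged from 4.43 to 19.9 CPM in the CL libraries labelled WT and from 16.6 to 24.9 in those labelled iKO, against the label. In UUO kidneys Pdgfb ran from 43.2 to 57.8 CPM in WT and from 33.4 to 40.6 in iKO, a log2 difference of −0.47 (edgeR adjusted p = 0.124). Read counts over a gene include exons outside a deletion, and which exons were removed was not examined. Groups of this arm are therefore named by their labels. In the Veptp arm, libraries numbered 3, 4, 7 and 8 carried opposite genotype labels in CL and UUO kidneys. For numbers 3, 7 and 8 the CL library correlated best with the UUO library of its own number, and the methods give fewer Veptp WT mice than there are UUO libraries so labelled. Ptprb in these libraries was 35.9 and 34.7 CPM in CL kidneys 3 and 4 (labelled iECKO) and 27.4 CPM in both UUO kidneys 3 and 4 (labelled WT), and 31.7 and 28.5 CPM in CL kidneys 7 and 8 (labelled WT) and 21.0 and 14.7 CPM in UUO kidneys 7 and 8 (labelled iECKO). Whether labels of this arm are wrong was not settled here.

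UUO lowered the reads that came from SLC25 carriers in control mice of all 3 arms. The share of all reads that fell in the 47 members was 0.465 to 0.628% in IgG CL kidneys and 0.303 to 0.403% in IgG UUO kidneys, with medians of 0.561 and 0.366%. In Veptp WT it was 0.495 to 0.7185% in CL (median 0.640%) and 0.3185 to 0.5425% in UUO kidneys (median 0.451%), and in Pdgfb WT 0.525 to 0.581% and 0.322 to 0.367%. The CL and UUO libraries overlapped in the Veptp arm only.

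Gene by gene, 19 of the 31 members tested in IgG mice were lower in UUO than in CL kidneys and 1 was higher at an adjusted p below 0.05 over all genes tested. Among all 9579 genes of that arm, 18.4% were called lower and 16.0% higher. In Veptp WT kidneys 15 of 38 members were lower and 1 higher, where 8.38% and 10.0% of all genes were. In Pdgfb WT kidneys 23 of 35 members were lower and 1 higher, where 19.4% and 17.9% of all genes were. The median log2 fold change of the tested members was −0.70, −0.65 and −0.82 in the IgG, Veptp WT and Pdgfb WT comparisons, and that of all genes tested was 0.01, −0.01 and 0.04. Lower in all 3 comparisons, which share no library, were 12 members: Slc25a42, Slc25a10, Slc25a16, Slc25a48, Slc25a12, Slc25a11, Slc25a13, Slc25a17, Slc25a15, Slc25a20, Slc25a35 and Slc25a51. The member called higher was Slc25a24 each time.

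The same comparison was made in treated mice. In ABTAA mice 15 of 31 members were lower and 1 higher, where 12.5% and 12.7% of all genes were, and 6 were lower in its libraries with plain names alone, where 4.38% of all genes were. In Veptp iECKO mice 8 of 38 were lower and 1 higher, where 3.47% and 4.47% of all genes were. In the libraries labelled Pdgfb iKO 5 of 35 were lower and 1 higher, where 2.40% and 3.94% of all genes were. The member medians were −0.45, −0.43 and −0.37 on the log2 scale, with all-gene medians of 0.00, 0.01 and −0.00. Over the 6 comparisons, Slc25a12 was called lower in 6, Slc25a10, Slc25a11 and Slc25a17 in 5, and 10 further members in 4. No member was called in opposite directions in any pair of comparisons.

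The falls in Veptp iECKO included Slc25a10, Slc25a11, Slc25a12, Slc25a17, Slc25a25, Slc25a29 and Slc25a35, and those in Pdgfb iKO were Slc25a4, Slc25a5, Slc25a12, Slc25a23 and Slc25a36. Both counts depended on single libraries. The 8 falls in Veptp iECKO became 2 without library G_2, 4 without G_4 or C8, and 5 without H_2 or H_7. C8 also held a skeletal muscle marker sum of 544 CPM, where the median of its group was 11.7, and the part of that in the carrier values was not tested. With the form of name in the fit the count was 19 (10.8% of all genes lower), in the libraries with joined names alone 18 (11.2%), and with the number in the name as a block (the replicate block) 18 (10.3%). Without the libraries numbered 3, 4, 7 and 8, the Veptp iECKO comparison had 0 members lower and 0 higher (0.127% and 0.852% of all genes), and the falls in Veptp WT went from 15 to 4 (Slc25a10, Slc25a20, Slc25a35 and Slc25a38, with 2.71% of all genes lower), with the rise of Slc25a24 still called. No called member of these comparisons that could be tested changed its sign in that setting. The 5 falls in Pdgfb iKO became 0 without D10, 1 without E11 or F12, 2 without E10 or A11 and 3 without D11.

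**Figure D1:**
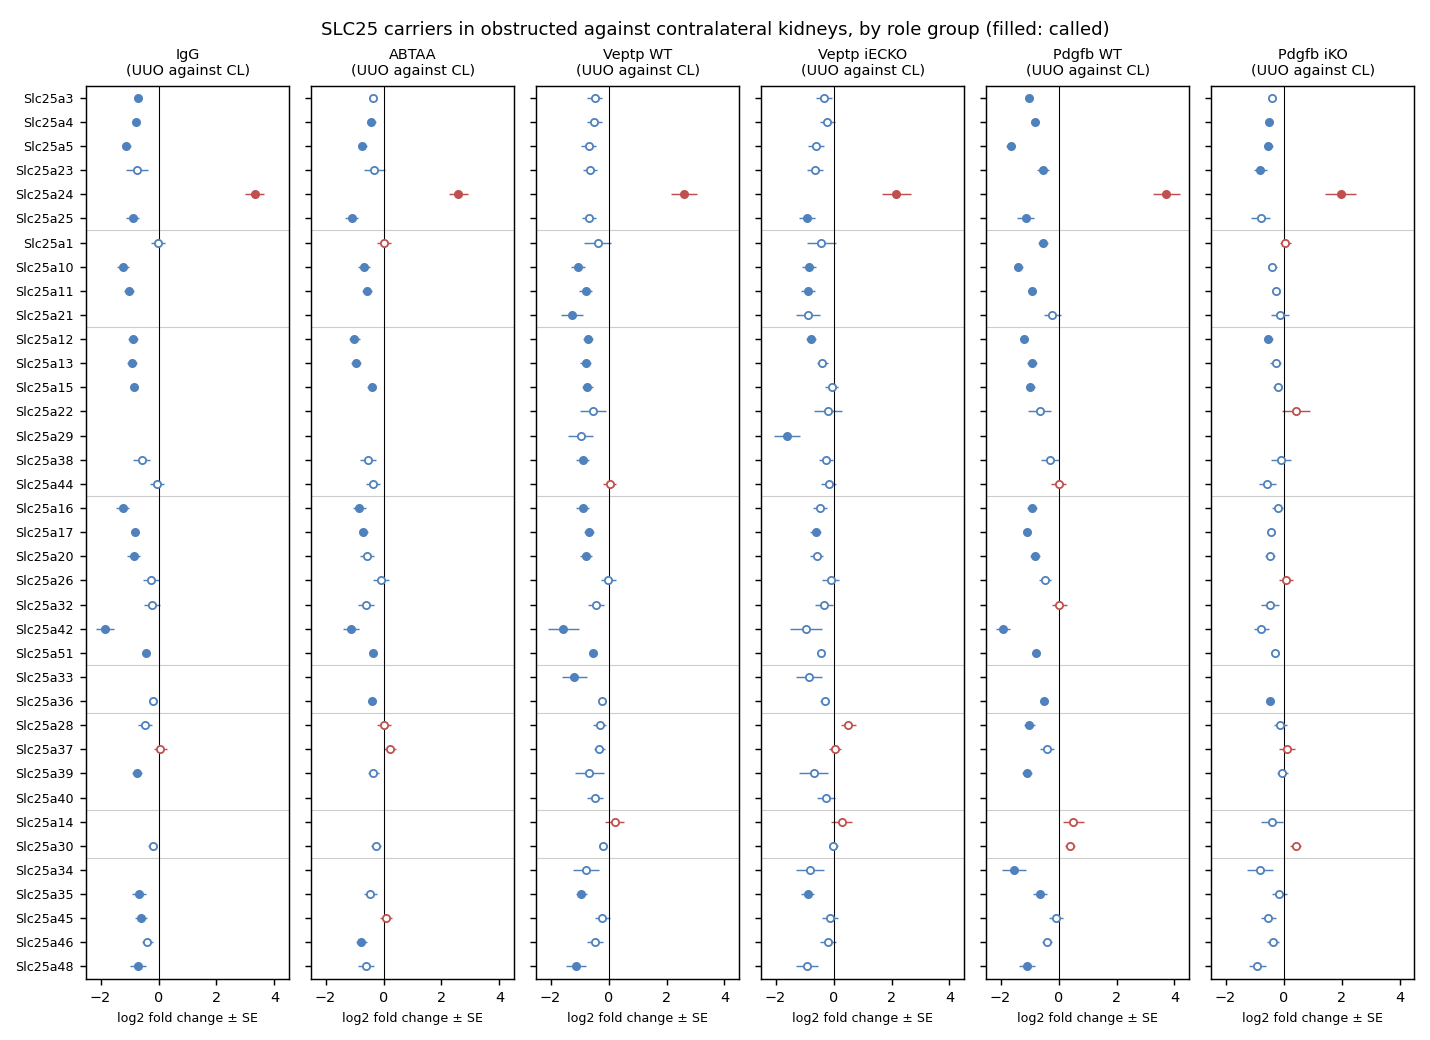
Log2 fold change of UUO against CL kidneys, with its standard error, for 37 of the 38 tested members in 6 comparisons, ordered by role. Filled points passed the adjusted p threshold of 0.05, red points lie above 0 and blue points below 0. Slc25a24 lies far to the right in every comparison, from 1.97 to 3.72, and most other members lie to the left of 0.

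The cell types of the kidney moved in the same comparisons. In IgG mice all 10 proximal tubule markers fell, their summed level going from a range of 12225 to 38282 CPM in CL kidneys to 6379 to 10761 CPM in UUO kidneys, and 7 of 8 markers of the loop, distal tubule and collecting duct fell. The 6 fibroblast, 6 macrophage and 4 proliferation markers all rose, the fibroblast sum going from 148 to 289 CPM up to 1124 to 1768 CPM. Proximal tubule markers fell for 8 of 10 genes in ABTAA, 6 in Veptp WT, 5 in Veptp iECKO, 10 in Pdgfb WT and 4 in Pdgfb iKO. Loop and distal markers fell for 6, 6, 5, 7 and 4 of 8 in the same order, and fibroblast markers rose for 6, 6, 2, 6 and 3 of 6. Macrophage markers rose for 6, 6, 5, 6 and 5 of 6, and proliferation markers for 4, 4, 4, 4 and 0 of 4. Podocyte markers fell for 2 of 3 in Pdgfb WT, 1 in Pdgfb iKO and 0 in the other 4 comparisons. Endothelial markers rose for 2 of 5 in IgG, 1 in ABTAA and 1 in Pdgfb WT, and fell for 1 in Veptp iECKO. In whole kidney, fewer cells of a type and less RNA per cell cannot be told apart, and the part of these shifts in the carrier values was not tested. Adipocyte and adrenal cortex markers were scarce, with medians of at most 14.0 CPM summed in the IgG, Veptp and Pdgfb groups, and Lep was at 0 in IgG kidneys. Single libraries held more, with adipocyte sums of up to 88.6 CPM in IgG UUO (D6), 70.8 in Veptp iECKO CL (G_3), 84.1 in Pdgfb WT CL (A5) and 89.8 in Pdgfb iKO UUO kidneys (F12).

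Carriers of adenine nucleotides and phosphate held the member that rose. Slc25a24 encodes SCaMC-1, which exchanges ATP-Mg for phosphate and is set by calcium. It lies on chr3:109123149-109168457 (GRCm38, plus strand). Its CPM had a lowest, median and highest value of 0, 3.14 and 7.18 in IgG CL kidneys and 23.4, 34.6 and 54.3 in IgG UUO kidneys, a log2 fold change of 3.32 ± 0.33 (SE, edgeR adjusted p = 4.85e-10). All 8 UUO libraries lay above every CL library.

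In Veptp WT, Slc25a24 ran 0, 3.37 and 9.51 CPM in CL and 14.8, 29.4 and 47.9 CPM in UUO kidneys, a log2 change of 2.59 ± 0.45 (edgeR adjusted p = 8.92e-05), again with no overlap. Pdgfb WT CL libraries held 1.11, 1.48, 2.79 and 4.19 CPM and UUO libraries 26.5, 29.2, 32.1 and 47.0 CPM, a log2 change of 3.72 ± 0.47 (edgeR adjusted p = 5.60e-07). The low CL values rest on few reads per library. In treated mice the rise was 2.58 ± 0.33 with ABTAA (edgeR adjusted p = 2.26e-07), with all 7 UUO libraries above the CL libraries. It was 2.17 ± 0.50 in Veptp iECKO (edgeR adjusted p = 0.00533), where the UUO libraries ran from 0 to 41.6 CPM and 4 of 8 lay above the highest CL library. That CL library, B8, held 18.1 CPM, where the next held 7.36, and its fibroblast marker sum of 795 CPM (group median 166) and macrophage sum of 379 CPM (group median 108) were also the highest of the group. Without B8 the rise was 2.49 (edgeR adjusted p = 0.00104), and the part of those markers in it was not tested. The call was kept in the libraries with joined names alone (2.81), with the form of name in the fit (2.42) and with the replicate block (2.24). Without the libraries numbered 3, 4, 7 and 8 that value was 2.11 (adjusted p = 0.179), and in the libraries whose names lack the character _ it was 0.53 (adjusted p = 0.936).

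**Figure D2:**
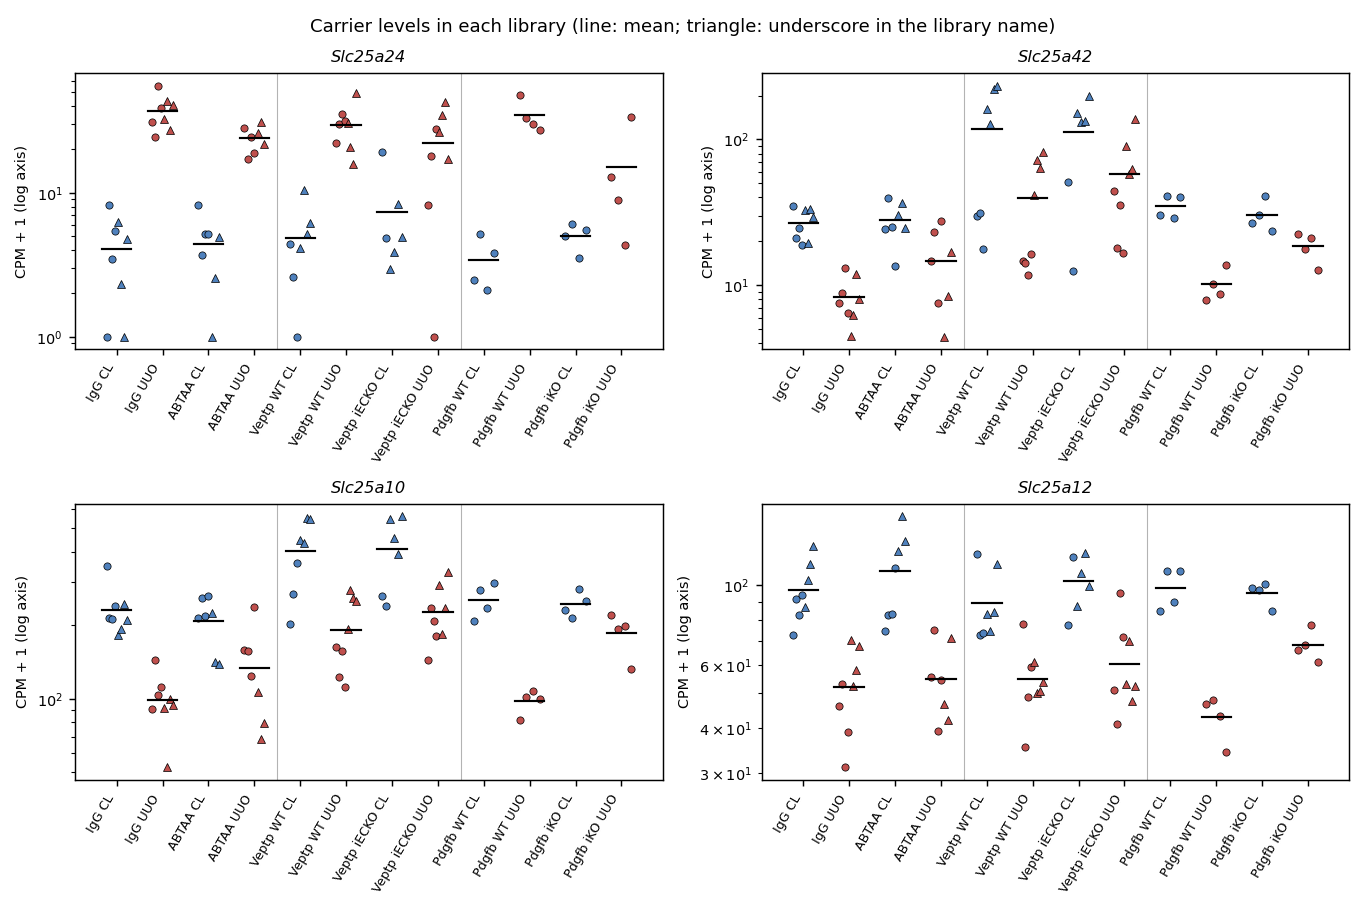
CPM plus 1 on a log axis for Slc25a24, Slc25a42, Slc25a10 and Slc25a12 in each of the 75 libraries, by group, with CL kidneys in blue and UUO kidneys in red. Lines mark group means, triangles libraries with the character _ in the name and circles those without. Slc25a24 is at or below 18.1 CPM in every CL library, and Slc25a42 in the Veptp arm splits by form of name.

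The translocases fell. Slc25a5, or ANT2, lies on chrX:36795651-36798807 (plus strand) and ran 1493, 1882 and 2347 CPM in IgG CL and 728, 835 and 1138 CPM in IgG UUO kidneys, with no overlap. Its log2 change was −1.11 in IgG (edgeR adjusted p = 4.28e-07) and −1.65 in Pdgfb WT (edgeR adjusted p = 1.47e-08), and its value of −0.68 in Veptp WT did not pass. Slc25a4, or ANT1, fell, with log2 changes of −0.78 in IgG and −0.83 in Pdgfb WT, and Slc25a3, the phosphate and copper carrier, with −0.70 and −1.004. Slc25a25 (SCaMC-2) fell in both as well, with −0.89 and −1.13, while Slc25a23 (SCaMC-3) fell in Pdgfb WT (−0.54, edgeR adjusted p = 0.0380, and 0.0677 to 0.155 without any 1 of F4, B5, D11 or C12), with −0.76 in IgG not passing. Of the 6 tested members of this role, 4 fell in IgG, 5 in Pdgfb WT and 0 in Veptp WT, where the fit held no term for the form of name. With that term, under which 17.3% of all genes were lower, 5 of 6 fell in Veptp WT, Slc25a5 among them (−0.68, edgeR adjusted p = 0.000662). In treated mice 3, 1 and 3 fell with ABTAA, Veptp iECKO and Pdgfb iKO.

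Among carriers of di- and tricarboxylates and keto acids, 2 of 3 tested members fell in IgG and 3 of 4 in each of Veptp WT and Pdgfb WT. Slc25a10, the dicarboxylate carrier that exchanges malate and succinate for phosphate, lies on chr11:120491840-120499187 (plus strand), where its exons overlap the antisense gene Gm11788. It ran 181, 213 and 349 CPM in IgG CL and 51.5, 96.1 and 143 CPM in IgG UUO kidneys, a log2 change of −1.24 ± 0.21 (edgeR adjusted p = 1.10e-05), with all 8 UUO libraries below every CL library. In Veptp WT it went from 202, 436 and 548 to 110, 177 and 279 CPM (−1.06 ± 0.24, edgeR adjusted p = 0.00173, and 0.0393 without the libraries numbered 3, 4, 7 and 8), with 5 of 8 UUO libraries below the CL range. In Pdgfb WT the CL libraries held 207, 235, 277 and 297 CPM and the UUO libraries 80.9, 98.9, 101 and 107 CPM (−1.39 ± 0.15, edgeR adjusted p = 1.10e-07).

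Slc25a11, the oxoglutarate/malate carrier of the malate-aspartate shuttle, lies on chr11:70644196-70647479 (minus strand) and overlaps Rnf167. It ran 97.9, 155 and 198 CPM in IgG CL and 55.0, 77.5 and 92.1 CPM in IgG UUO kidneys, again without overlap, a log2 change of −1.02 ± 0.17 (edgeR adjusted p = 1.28e-05). It also fell in Veptp WT (−0.79 ± 0.24, edgeR adjusted p = 0.0171, 0.0550 without library G_8 and 0.0855 without the libraries numbered 3, 4, 7 and 8) and in Pdgfb WT (−0.92 ± 0.14, edgeR adjusted p = 7.74e-06). Slc25a21, the oxodicarboxylate carrier, fell in Veptp WT (−1.25, edgeR adjusted p = 0.0204, and 0.136 without the libraries numbered 3, 4, 7 and 8) and gave −0.22 in Pdgfb WT, which did not pass. Slc25a1, the citrate carrier that exports citrate for lipid synthesis, gave −0.03 in IgG and −0.38 in Veptp WT, neither of which passed, and fell in Pdgfb WT (−0.53, edgeR adjusted p = 0.0170, and 0.0556 to 0.0800 without F4 or B11). Because the strand setting of the counting is not given in the sources used here, reads of Slc25a10 and Slc25a11 may include those of their overlapping neighbours, and the same holds for Slc25a21, Slc25a23, Slc25a25, Slc25a26, Slc25a33, Slc25a35, Slc25a37 and Slc25a46, whose exons overlap genes on the other strand.

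Of the amino acid carriers, 3 of 5 tested members fell in IgG, 4 of 7 in Veptp WT and 3 of 6 in Pdgfb WT. Slc25a12 and Slc25a13 encode the aspartate/glutamate carriers AGC1 and AGC2 (citrin) of the malate-aspartate shuttle. Slc25a12, on chr2:71271063-71367749 (minus strand), ran 71.8, 91.8 and 128 CPM in IgG CL and 30.2, 51.8 and 69.7 CPM in IgG UUO kidneys, a log2 change of −0.88 ± 0.18 (edgeR adjusted p = 0.000162), with no overlap. In Veptp WT it went from 71.6, 82.2 and 121 to 34.5, 51.3 and 77.3 CPM (−0.72 ± 0.18, edgeR adjusted p = 0.00379, and 0.0987 without the libraries numbered 3, 4, 7 and 8) and 7 of 8 UUO libraries lay below the CL range. In Pdgfb WT the CL libraries held 84.1, 88.7, 109 and 109 CPM and the UUO libraries 33.3, 42.3, 45.8 and 46.8 CPM (−1.20 ± 0.14, edgeR adjusted p = 3.44e-07).

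Slc25a12 was the member that passed in all 6 comparisons, with −1.002 ± 0.18 in ABTAA, −0.78 ± 0.19 in Veptp iECKO and −0.52 ± 0.15 in Pdgfb iKO (edgeR adjusted p = 7.80e-05, 0.00724 and 0.0396). In Veptp iECKO the value was −0.61 (edgeR adjusted p = 0.301) without the libraries numbered 3, 4, 7 and 8. In libraries whose names lack the character _, no member was called lower, and neither was any of the 7778 genes tested. In Pdgfb iKO the adjusted p lay between 0.0510 and 0.144 without any 1 of B10, D10, A11, D11, E11, A12 or F12. Slc25a13, on chr6:6041218-6217173 (minus strand), ran 75.7, 98.3 and 131 CPM in IgG CL and 30.4, 54.0 and 72.5 CPM in IgG UUO kidneys (−0.92 ± 0.16, edgeR adjusted p = 2.65e-05). It fell likewise in Pdgfb WT (−0.92) and in Veptp WT (−0.79, and −0.59 with an adjusted p of 0.160 by edgeR without the libraries numbered 3, 4, 7 and 8). Slc25a15, the ornithine/citrulline carrier ORC1 of the urea cycle, fell by 0.85, 0.73 and 0.97 on the log2 scale in the 3 control comparisons, of which the Veptp WT value had an edgeR adjusted p of 0.174 without the libraries numbered 3, 4, 7 and 8. Slc25a38, a glycine carrier needed for heme synthesis, fell in Veptp WT alone (−0.90), with −0.59 in IgG and −0.30 in Pdgfb WT not passing. Slc25a44, a carrier of branched-chain amino acids, lay between −0.05 and 0.04 in the control comparisons and Slc25a22, a glutamate carrier, gave −0.54 and −0.66 in Veptp WT and Pdgfb WT, none of which passed.

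The carriers of acylcarnitine, coenzyme A and other cofactors had 8 tested members, of which 6 fell in IgG, 5 in Veptp WT and 6 in Pdgfb WT, and 5, 2 and 0 in ABTAA, Veptp iECKO and Pdgfb iKO. Slc25a42, which exchanges coenzyme A for ADP, had the largest mean fall of the members called in all 3 control comparisons. It lies on chr8:70184340-70212305 (minus strand). It ran 17.8, 26.2 and 34.2 CPM in IgG CL and 3.48, 6.80 and 12.1 CPM in IgG UUO kidneys, a log2 change of −1.85 ± 0.31 and a level 3.61-fold lower (edgeR adjusted p = 1.11e-05). The Pdgfb WT CL libraries held 27.7, 29.5, 39.0 and 39.8 CPM and the UUO libraries 6.90, 7.74, 9.12 and 12.7 CPM, a log2 change of −1.93 ± 0.25 (edgeR adjusted p = 8.58e-07). Neither comparison had overlap.

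In Veptp WT, Slc25a42 ran 16.8, 126 and 232 CPM in CL and 10.8, 27.8 and 81.1 CPM in UUO kidneys, so that 4 of 8 UUO libraries lay below the CL range. Its log2 change was −1.56 ± 0.54 (edgeR adjusted p = 0.0395), and the adjusted p lay between 0.0584 and 0.114 without any 1 of G_5, G_6, G_7, G_8, H8, C9, G9, H9 or H_3. It was 0.345 without the libraries numbered 3, 4, 7 and 8, with a change of −1.11. With ABTAA the change was −1.12 ± 0.28 (edgeR adjusted p = 0.00296), and −0.94 in Veptp iECKO and −0.77 in Pdgfb iKO did not pass.

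Slc25a16, a carrier linked to coenzyme A, ran 64.2, 90.4 and 108 CPM in IgG CL and 17.4, 33.0 and 59.9 CPM in IgG UUO kidneys (−1.24 ± 0.22, edgeR adjusted p = 2.13e-05), and went from 76.7, 94.0 and 107 to 32.7, 47.9 and 72.3 CPM in Veptp WT (−0.89 ± 0.22, edgeR adjusted p = 0.00407, and 0.108 without the libraries numbered 3, 4, 7 and 8). In both, all 8 UUO libraries lay below every CL library. Slc25a17 carries coenzyme A, FAD and NAD in the peroxisome, so it is a family member outside mitochondria. It ran 129, 180 and 248 CPM in IgG CL and 66.4, 105 and 139 CPM in IgG UUO kidneys (−0.80 ± 0.14, edgeR adjusted p = 3.41e-05), where 6 of 8 UUO libraries lay below the CL range, and its change was −1.10 in Pdgfb WT and −0.68 in Veptp WT (adjusted p = 0.0867 by edgeR without the libraries numbered 3, 4, 7 and 8). Slc25a20, the carnitine/acylcarnitine carrier, fell by 0.86, 0.77 and 0.82 on the log2 scale in the 3 control comparisons.

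Slc25a51, the NAD carrier, fell by 0.42, 0.54 and 0.78 on the log2 scale in the same 3 comparisons, with an edgeR adjusted p of 0.139 for Veptp WT without the libraries numbered 3, 4, 7 and 8. The S-adenosylmethionine carrier Slc25a26 lay between −0.46 and −0.01 and the folate and FAD carrier Slc25a32 between −0.44 and 0.02 in the control comparisons, and neither passed in any.

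Carriers of iron and glutathione gave calls in fewer comparisons. Slc25a39, which brings glutathione into mitochondria, fell by 0.75 in IgG and 1.09 in Pdgfb WT on the log2 scale, and −0.66 in Veptp WT did not pass. Slc25a28 (mitoferrin 2), an iron importer for heme and iron-sulfur clusters, fell in Pdgfb WT (−1.01), while Slc25a37 (mitoferrin 1) lay between −0.41 and 0.06 in the control comparisons and did not pass. The pyrimidine nucleotide carrier Slc25a36 fell in Pdgfb WT (−0.50) and Slc25a33 in Veptp WT (−1.18), where it was too low to be tested without the libraries numbered 3, 4, 7 and 8. The uncoupling-protein-like members Slc25a30 (KMCP1) and Slc25a14 (UCP5) passed in 0 of the comparisons they were tested in. Their log2 changes in Pdgfb WT were 0.38 and 0.51, and without TMM scaling they were 0.74 and 0.87 and both were called higher, as were 39.7% of all genes under that scaling.

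Among members not assigned to a substrate group here, 3 of 4 fell in IgG, 2 of 5 in Veptp WT and 3 of 5 in Pdgfb WT. Slc25a48 ran 22.3, 28.7 and 44.5 CPM in IgG CL and 0, 22.8 and 30.2 CPM in IgG UUO kidneys (−0.70 ± 0.27, edgeR adjusted p = 0.0390), with 4 of 8 UUO libraries below the CL range. The adjusted p lay between 0.0589 and 0.110 without any 1 of B4, A6, P_5, P_6 or P_7. In Veptp WT its change was −1.12 ± 0.36 (edgeR adjusted p = 0.0254, and 0.0502 to 0.0661 without any 1 of F3, H8, H_3 or H_6, and 0.193 without the libraries numbered 3, 4, 7 and 8) and in Pdgfb WT −1.08 ± 0.28 (edgeR adjusted p = 0.00348). Slc25a35 fell by 0.67, 0.93 and 0.65 on the log2 scale in the 3 control comparisons.

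Against IgG, ABTAA changed 0 of 31 members in UUO kidneys, 0 in CL kidneys and 0 in the difference of UUO responses by edgeR, and 0% of all genes were called in each. At an unadjusted p below 0.05 there were 3, 0 and 2 members, where 344, 311 and 323 of all 9579 genes were. DESeq2 called 0 members and 0% of all genes in each as well. A replicate block was also fitted for the numbers 9, 11 and 12, carried in this arm only by ABTAA libraries with joined names. It pairs no IgG library, and it leaves the ABTAA level to plain names while the IgG level holds both forms. With it the counts were 8, 2 and 3, the 8 all higher with ABTAA, so treatment and form are mixed there. With the form of name as a term in the fit they were 8, 0 and 5. Neither fit called a member after adjustment, and the share of all genes below 0.05 unadjusted was not read for them. In UUO kidneys the 3 were Slc25a15, at 52.6, 73.0 and 118 CPM with IgG and 73.2, 112 and 139 CPM with ABTAA (log2 0.46 ± 0.15, unadjusted p = 0.00434, adjusted p = 0.999, edgeR), Slc25a42 (0.81 ± 0.35) and Slc25a24 (−0.60 ± 0.26). The groups overlapped for Slc25a15. The member median was 0.20 on the log2 scale in UUO and 0.05 in CL kidneys.

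Veptp iECKO against WT likewise gave 0 of 38 members by edgeR and 0% of all genes in UUO kidneys, in CL kidneys and in the difference of responses. DESeq2 called 0 members in each. At an unadjusted p below 0.05 there were 0, 0 and 2 members, where 424, 229 and 324 of all 11916 genes were. The 2 were Slc25a28 (0.81) and Slc25a15 (0.66). The log2 differences of the members ran from −0.28 to 0.56 in UUO and from −0.52 to 0.40 in CL kidneys. The marker genes of the fibroblast list rose with UUO for 2 of 6 in iECKO and 6 of 6 in WT. That these counts of calls differ is not a test of a difference between the groups.

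The libraries labelled Pdgfb iKO differed from those labelled WT in UUO kidneys. There 14 of 35 members were higher in iKO and 1 was lower, where 12.0% of all genes were higher and 6.58% lower. The member median was 0.48 on the log2 scale. In CL kidneys 0 of 35 members and 0% of all genes differed by edgeR, and DESeq2 called 0 of either. Below 0.05 unadjusted by edgeR were 1 member, Slc25a39 (−0.45, unadjusted p = 0.0237), and 378 of all 10923 genes.

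**Figure D3:**
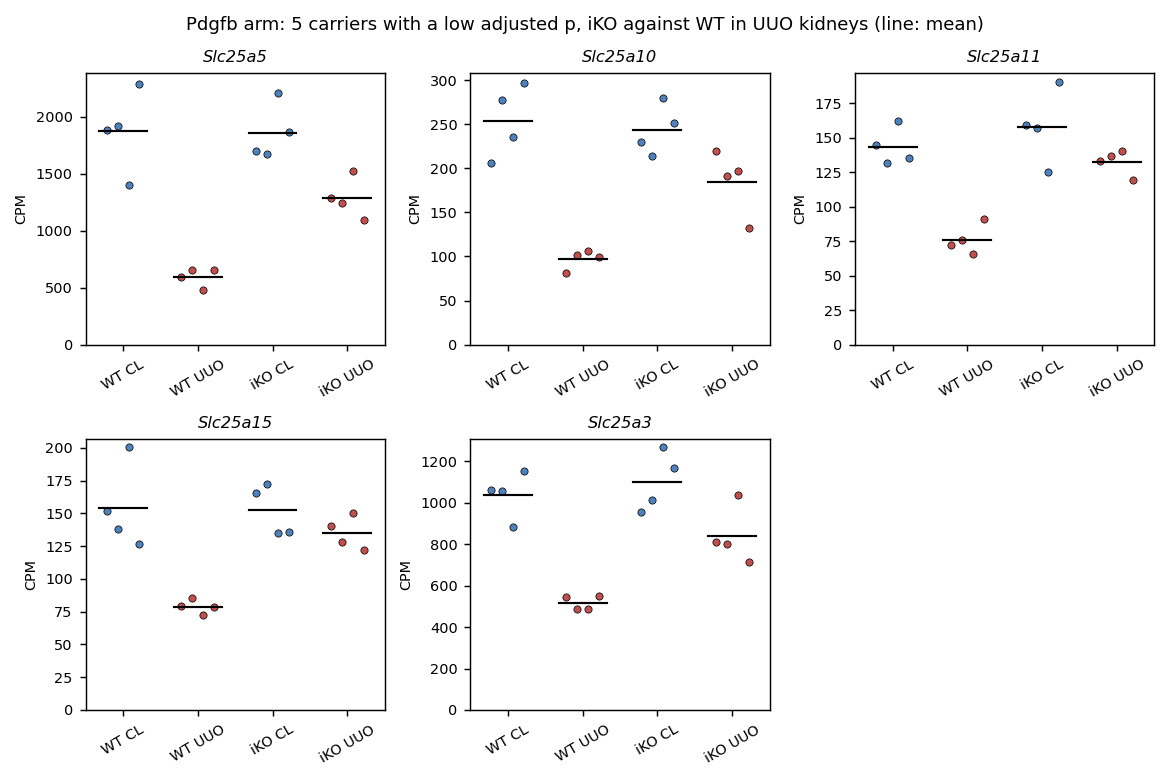
CPM of Slc25a5, Slc25a10, Slc25a11, Slc25a15 and Slc25a3 in the 4 libraries of each Pdgfb group, in the order WT CL, WT UUO, iKO CL and iKO UUO. Each point is a library and the line is the mean. The WT UUO libraries lie below the iKO UUO libraries for all 5 members.

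Slc25a5 held 479, 595, 653 and 658 CPM in WT UUO libraries and 1095, 1246, 1291 and 1525 CPM in iKO UUO libraries, with no overlap (log2 1.11 ± 0.16, 2.16-fold, edgeR adjusted p = 2.27e-05). Its CL libraries ran from 1405 to 2294 CPM in WT and from 1671 to 2213 CPM in iKO. Slc25a10 held 80.9, 98.9, 101 and 107 CPM in WT UUO and 132, 192, 197 and 219.5 CPM in iKO UUO libraries (0.92 ± 0.16, edgeR adjusted p = 0.000153). For Slc25a11 the values were 65.5, 72.1, 75.8 and 91.1 against 119.5, 133, 137 and 140.1 CPM (0.80 ± 0.14, edgeR adjusted p = 0.000218). All 4 iKO libraries lay above every WT library for each of these.

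Slc25a15 held 72.1, 78.4, 79.0 and 85.7 CPM in WT UUO and 122, 128, 140.1 and 150.1 CPM in iKO UUO libraries (0.76 ± 0.15, edgeR adjusted p = 0.00055). Slc25a3 held 485, 486, 547 and 552 against 711.7, 802.5, 811.5 and 1037.5 CPM (0.69 ± 0.14, edgeR adjusted p = 0.000793). The groups did not overlap for either of them. By role, 3 of 6 adenine nucleotide and phosphate carriers were higher in iKO, 2 of 4 di- and tricarboxylate carriers, 2 of 6 amino acid carriers, 5 of 8 cofactor carriers and 2 of 3 iron and glutathione carriers. None of the 5 tested members not assigned to a substrate group here, the 2 uncoupling-protein-like members or the 1 pyrimidine carrier was called.

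Slc25a24 was the 1 member lower in iKO UUO kidneys. Its WT UUO libraries held 26.5, 29.2, 32.1 and 47.0 CPM and its iKO UUO libraries 3.34, 7.85, 12.0 and 32.8 CPM, so that 1 iKO library lay inside the WT range (log2 −1.01, edgeR adjusted p = 0.0244). The adjusted p lay between 0.0926 and 0.118 without any 1 of B11, E11 or A12, and without F12 the difference was −1.88 (edgeR adjusted p = 0.000141). Against its own CL libraries the iKO value was 1.97 ± 0.53 (edgeR adjusted p = 0.0240, and 0.0529 to 0.267 without any 1 of D10, E10, A11 or F12). Without F12 it was 1.101.

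The difference of the UUO responses, iKO minus WT, uses the same WT and iKO UUO libraries and is therefore not separate from the values above. Unmarked sham kidneys are in its WT baseline, and their part was not tested. The difference was called for 9 members, all positive, where 6.66% of all genes were called higher and 1.90% lower. They included Slc25a5 (1.12 ± 0.22, edgeR adjusted p = 0.00228), Slc25a10 (0.99 ± 0.22, edgeR adjusted p = 0.00496), Slc25a39 (1.04), Slc25a15 (0.77), Slc25a17 (0.67), Slc25a11 (0.65), Slc25a12 (0.68) and Slc25a42 (1.16), the last with an adjusted p of 0.0475 by edgeR. The calls of Slc25a5, Slc25a10, Slc25a39 and Slc25a15 were kept whichever library was left out, and the count fell to 4 without A11, B11 or A12 and to 5 without A5, D11, F10 or E11. For Slc25a24 the difference was −1.75 and did not pass.

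Scaling mattered in this arm. The median of all genes was −0.02 in the comparison of iKO with WT in UUO kidneys and −0.28 without TMM factors, −0.00 and −0.28 in the difference of responses, and 0.04 and 0.40 in WT UUO against CL. Under that scaling 6 members were higher in iKO UUO kidneys, among them Slc25a5 (0.82), Slc25a10, Slc25a11 (0.53), Slc25a15 (0.48) and Slc25a3 (0.41), and 2 were lower, Slc25a24 (−1.27) and Slc25a32 (−0.74), where 6.11% of all genes were higher and 21.8% lower. The difference of responses then held 2 members, Slc25a5 (0.82) and Slc25a10, both higher, where 2.88% of all genes were higher and 5.75% lower.

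Cell type markers moved with the same libraries. In UUO kidneys 9 of 10 proximal tubule and 7 of 8 loop and distal markers were higher in iKO than in WT, and 6 of 6 fibroblast, 2 of 6 macrophage, 2 of 5 endothelial and 2 of 4 proliferation markers were lower. The proximal tubule sum was 4266 to 5520 CPM in WT UUO and 8771 to 24287 CPM in iKO UUO kidneys, and the fibroblast sum was 1116 to 1529 and 390 to 941 CPM. Skeletal muscle markers, tested in this arm only, fell with UUO for 3 of 3 in both groups, from 30.7 to 90.0 CPM in WT CL to 0 to 16.3 CPM in WT UUO kidneys. In the other arms group medians were at most 11.7 CPM, with single libraries at 544 CPM (C8, Veptp iECKO UUO), 108 CPM (A8, Veptp WT CL) and 97.6 CPM (B7, IgG CL). Their part in the carrier values was not tested.

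Other proteins of mitochondrial transport were read beside the family. Of 13 tested genes in IgG, 8 were lower in UUO kidneys and 0 higher, with Mpc1, a subunit of the mitochondrial pyruvate carrier, at −1.11 (edgeR adjusted p = 3.76e-07), the sideroflexin Sfxn2 at −1.03 and Letm1, a protein of the inner membrane that handles cations, at −0.95. The counts lower were 5 of 13 in ABTAA, 4 of 15 in Veptp WT, 0 of 15 in Veptp iECKO, 8 of 14 in Pdgfb WT and 1 of 14 in Pdgfb iKO. Of all genes, 18.4% were lower in IgG, and 12.5%, 8.38%, 3.47%, 19.4% and 2.40% in these 5 comparisons in the same order. In iKO against WT UUO kidneys 6 of 14 were higher (12.0% of all genes), and 4 in the difference of responses (6.66%). Relatives of the family with other symbols had 3 tested genes, of which Mtch2 fell in IgG (−0.40, edgeR adjusted p = 0.0035) and Pdgfb WT (−0.63), while Mtch1 (−0.13) and Ucp2 (−0.05) did not pass in IgG.

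The libraries carry 2 forms of name, joined by the character _ in 30 (such as G_2) and plain in 45 (such as C8), and levels differed between these forms for many genes of the ABTAA and Veptp arms, members included. The Pdgfb arm has plain names only. In the ABTAA arm 6 of 31 members were higher and 10 lower in the joined form, where 20.6% and 19.8% of all genes were. In the Veptp arm 15 of 38 were higher and 9 lower, where 34.0% and 28.4% of all genes were. Except for the lower members of the ABTAA arm, these counts lay near the shares of all genes.

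In the Veptp arm the largest of these differences were Slc25a42 (2.32 ± 0.19, edgeR adjusted p = 8.75e-13), Slc25a39 (2.03 ± 0.12, edgeR adjusted p = 3.41e-17) and Slc25a1 (1.98 ± 0.12, edgeR adjusted p = 1.80e-16), on the log2 scale. In WT CL kidneys Slc25a1, on chr16:17925223-17928219 (minus strand), had a median of 42.1 CPM in libraries with plain names and 211 CPM in those with joined names. Slc25a39, on chr11:102402985-102407946 (minus strand), had 174 and 775 CPM, and Slc25a42 had 28.7 and 191 CPM. The forms did not overlap for any of the 3 in that group. In the ABTAA arm the same members gave 0.00 for Slc25a42, 0.34 for Slc25a39 and −0.61 for Slc25a1. There the largest were Slc25a23 (−1.08 ± 0.20, edgeR adjusted p = 2.9e-05), Slc25a20 (0.77 ± 0.10, edgeR adjusted p = 1.34e-07) and Slc25a16 (−0.64 ± 0.10, edgeR adjusted p = 6e-06).

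**Figure D4:**
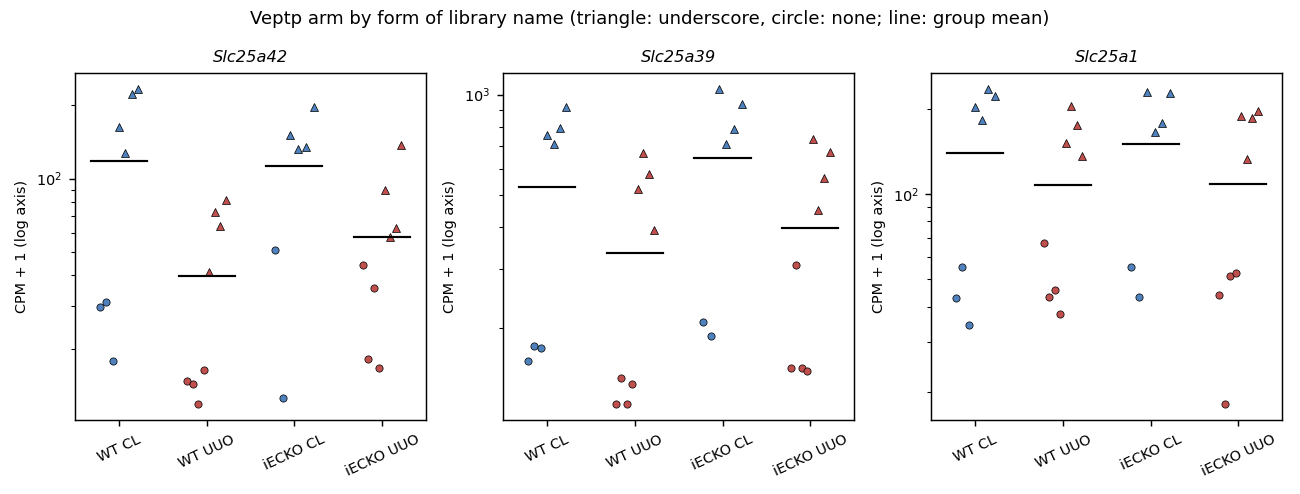
CPM plus 1 on a log axis for Slc25a42, Slc25a39 and Slc25a1 in the Veptp arm, by group and by form of library name. Libraries with joined names lie above those with plain names for Slc25a39 and Slc25a1 in each group.

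The UUO response itself was set against the form of name. By edgeR it differed between forms for 0 of 31 members in the ABTAA arm, with 0% of all genes called, and for 0 of 38 in the Veptp arm, where 0.101% of all genes were called higher and 0.269% lower. At an unadjusted p below 0.05 there were 5 and 4 members, where 894 of all 9579 and 1119 of all 11916 genes were. DESeq2 called 1 member in the ABTAA arm, lower, where 0.835% of all genes were lower and 0.0313% higher. In the Veptp arm it called 0 members, with 0.403% of all genes lower and 0.336% higher. For Slc25a42 in Veptp WT the medians went from 28.7 to 13.5 CPM in plain names and from 191 to 67.2 CPM in joined names, so the level differed by form and the direction with UUO was the same in both. With the form as a covariate 24 members fell in Veptp WT and 19 in Veptp iECKO, against 15 and 8 without it, while the share of all genes called lower went from 8.38% to 17.3% and from 3.47% to 10.8%.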

How the data were processed

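Kidney RNA of 75 libraries was measured by Smart-seq3, and the authors deposited 1 table of raw read counts per gene. According to the submitters' processing notes and the methods, merged reads were aligned to mm10 with STAR 2.7.3a, UMI-tools 1.1.4 was used, and featureCounts (Subread 1.4.6-p5) assigned reads to genes. For the annotation, the strand setting and multi-mapping reads, the choice is not given in the sources used here.

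Groups came from the sample labels. Each arm was fitted once over its 4 groups with edgeR 4.0.16 in R 4.3.3 (TMM factors, filterByExpr, quasi-likelihood F test), and p-values were adjusted by Benjamini-Hochberg over all genes tested in the arm, with a threshold of 0.05. Standard errors are the log2 fold change divided by the square root of F. The script was tested on simulated data. Labels name samples of a group and give no further detail of cultures or litters, so p-values measure the spread between these samples.

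Members, role groups, marker lists and tests were chosen with earlier results of these data known. The named members were up to 8 with the largest mean fall and up to 4 with the largest mean rise among those called in all 3 control comparisons, up to 6 per comparison of treatments, up to 3 per arm between forms of name, and examples of each role. The values of 1 member are not reported here, though the counts include it. Alternatives were no TMM factors, no filter, DESeq2 1.42.0, edgeR's exact test without TMM factors, Xist as a covariate, leaving out each library, and in the ABTAA and Veptp arms the form of library name, each form alone and a replicate block. In the ABTAA arm the 3 numbers shared by CL and UUO libraries (9, 11 and 12) paired the samples, with correlations of their deviations of 0.397, 0.211 and 0.166. Gene positions came from the GENCODE M21 annotation of GRCm38, the promoters from RefSeq GRCm38.p6, and the motifs were searched as letters on both strands.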

Additional observations from a re-analysis of the deposited data

Results flagged for a closer look

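Over 9 members and the 12 groups, 108 sets of values were examined for a library that stood apart from its group by Dixon's criterion, and 8 were found. Chance alone gives about 1 in 20. Slc25a10 was highest at 349 CPM in the IgG CL library A6, which also had the highest sum of proximal tubule markers in that group (38282 CPM), and lowest at 51.5 CPM in the IgG UUO library P_6. Slc25a48 was at 0 CPM in the IgG UUO library P_5 and at 3.58 CPM in the Veptp iECKO UUO library H_2. Slc25a13 was highest at 123 CPM in the Pdgfb iKO CL library B10, while the highest proximal tubule sum of that group was in D10 (19690 CPM). Slc25a17 was lowest at 58.3 CPM in the Veptp WT UUO library H9 and highest at 150.1 CPM in the Pdgfb iKO UUO library F10, which had the highest proximal tubule sum of its group (24287 CPM). Slc25a24 was at 0 CPM in the Veptp iECKO UUO library E9. The part of cell content in these values was not tested.

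The response to UUO differed between the libraries labelled Pdgfb iKO and WT for 9 members by the edgeR test of the difference. For the 8 reported here the log2 differences, iKO minus WT, were 1.12 for Slc25a5, 0.99 for Slc25a10, 1.04 for Slc25a39, 0.77 for Slc25a15, 0.67 for Slc25a17, 0.65 for Slc25a11, 0.68 for Slc25a12 and 1.16 for Slc25a42. Markers of tubule and fibroblasts differed between the same libraries, and their part in these values was not tested.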

How the results depend on the processing

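None of the called values of members changed its sign under any alternative run (0 of 3613 refitted values, each library left out included), while 764 of 13732 refitted values that were not called did. Without TMM factors 51 of 503 such values did. Of 107 called values of named members, 101 stayed past the threshold with DESeq2, 76 without TMM factors and 97 without the filter, 84 of 85 with Xist as a covariate, 43 of 43 each with the form as a covariate, with the replicate block and in libraries with joined names alone, 22 of 43 in libraries with plain names alone, 50 of 74 by the exact test and 3 of 17 without the libraries numbered 3, 4, 7 and 8. The counts of members that moved by over 1.5 times were as follows, with the share of all genes called in the same direction in parentheses. Where no construction shows the cause, it was not tested. ABTAA UUO against CL had 15 lower (12.5%), and 6 in libraries with plain names alone (4.38%). The UUO response by form in the ABTAA arm had 0 (0%), and 1 lower by DESeq2 (0.835%). Veptp WT had 15 lower (8.38%), and 7 without TMM factors (4.62%), 5 by the exact test (4.81%) and 24 with the form as a covariate (17.3%). It had 5 in libraries with plain names alone (6.69%) and 4 without the libraries numbered 3, 4, 7 and 8 (2.71%). Veptp iECKO had 8 lower (3.47%), and 1 without TMM factors (2.05%), 1 by the exact test (1.62%) and 19 with the form as a covariate (10.8%). It had 18 in libraries with joined names alone (11.2%), 0 in the others alone (0%) and 0 without those numbered 3, 4, 7 and 8 (0.127%). Its 1 higher (4.47%) became 0 in the last 2 settings (0% and 0.852%). Between forms in the Veptp arm, 15 higher (34.0%) became 26 (57.5%) and 9 lower (28.4%) became 5 (14.0%) without TMM factors. Pdgfb WT had 1 higher (17.9%), and 3 without TMM factors (39.7%) and 3 by the exact test (39.9%). Pdgfb iKO had 5 lower (2.40%), and 2 without TMM factors (1.43%), 8 with Xist as a covariate (3.54%), 3 by DESeq2 (2.34%) and 1 by the exact test (1.62%). The exact test also left 0 higher (4.49%) in place of 1 (3.94%). Pdgfb iKO against WT in UUO kidneys had 14 higher (12.0%), and 6 without TMM factors (6.11%) and 6 by the exact test (6.53%). Its 1 lower (6.58%) became 2 without TMM factors (21.8%), 0 by DESeq2 (4.71%) and 3 by the exact test (25.8%). The difference of responses in the Pdgfb arm had 9 higher (6.66%), and 2 without TMM factors (2.88%) and 5 without the filter (3.09%).

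In the Veptp arm the CL and UUO libraries share only a number, since 3, 4, 7 and 8 carry opposite genotype labels, and not every library correlated best with its own number. With the replicate block the members lower were 23 in WT and 18 in iECKO. The share of all genes lower went from 8.38% to 15.5% and from 3.47% to 10.3%. In this arm every joined name carries such a number and no plain name does, so the block also takes up the form of name. In the ABTAA arm the replicate block pairs ABTAA libraries with joined names only. It gave 19 lower in IgG (20.0% of all genes) and 17 in ABTAA (14.1%). Between ABTAA and IgG UUO kidneys it gave 8 members at an unadjusted p below 0.05 in place of 3, with treatment and form mixed. Pdgfb libraries share no numbers.

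Leaving out each library gave 2 to 10 members lower in Veptp iECKO. In Pdgfb iKO it gave 0 to 6 lower and 0 to 1 higher. In iKO against WT UUO kidneys it gave 10 to 15 higher and 0 to 1 lower, and 4 to 11 in the difference of responses. The lower counts ran from 17 to 20 in IgG, 13 to 17 in ABTAA, 12 to 17 in Veptp WT and 21 to 23 in Pdgfb WT. Depth limits members with few reads: 9 of the 47 could not be tested.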
